A study of Mus musculus with 15 samples.

Results

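The genes described here are 10 members of the transforming growth factor beta (TGF-beta) pathway: the ligands Tgfb1, Tgfb2 and Tgfb3, the receptors Tgfbr1 and Tgfbr2, the signal-carrying Smads Smad2, Smad3 and Smad4, and the inhibitors Smad7 and Skil. They were chosen by name, and their rows were taken by gene symbol from count files that hold 24490 genes. All 10 were found, and all 10 were among the 14907 genes kept by the filter on low counts. The RNA came from primary granulosa cells, the somatic cells that surround the oocyte, taken from 8-week-old females of the RjOrl:SWISS strain. Every culture was transfected with 30 pmol of small interfering RNA (siRNA) in a lipid reagent, and the study compared cells depleted of the transcription factor FOXL2 or of the oestrogen receptor ESR2 with cells given a non-targeting siRNA. There were 5 groups of 3 libraries: scrambled siRNA at 30 h, Foxl2 siRNA at 30 h, Esr2 siRNA at 30 h, scrambled siRNA at 54 h and Foxl2 siRNA at 54 h. Each target was hit with pools of 3 siRNAs. The labels name 4 such pools per target, with identical catalogue numbers for Foxl2 and Esr2, and do not say which pool went into which of the 3 libraries of a group, so replicates of 1 group may have received different pools. The times are those in the sample titles, since the extraction protocol speaks only of 30 h. Whether replicate libraries are separate cultures or animals is not stated, and p-values therefore cover only the differences among these libraries, part of which may be technical.

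TGF-beta ligands are secreted as latent complexes and, once freed, bind the type II receptor TGFBR2, which recruits and phosphorylates the type I receptor TGFBR1. The activated TGFBR1 kinase phosphorylates SMAD2 and SMAD3, which join SMAD4 and move to the nucleus to change transcription. SMAD7 blocks the receptor and is itself induced by the signal, and SKIL (SnoN) holds Smad complexes in a repressed state. In the ovary, TGF-beta family signals act on granulosa cell growth, steroid production and matrix, beside activins and bone morphogenetic proteins that use the same or sister Smads.

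Gene counts per library ranged from 44976872 to 59550065. Levels are given as CPM, counts scaled to a common library size with TMM factors, and where levels of different genes are set beside each other, as CPM per kb of exon. Foxl2 was at 143 to 174 CPM with scrambled siRNA at 30 h and at 154 to 189 CPM at 54 h, against 28.4 to 65.4 CPM and 25.2 to 57.5 CPM with Foxl2 siRNA. Esr2 was at 60.4 to 61.6 CPM with scrambled siRNA and at 12.9 to 14.5 CPM with Esr2 siRNA at 30 h. The targeted genes thus went with their labels, but the Foxl2 siRNA libraries were uneven: replicate 3 at 30 h kept 65.4 CPM of Foxl2 and replicate 2 at 54 h kept 57.5 CPM, while the other 4 had at most 33.8 CPM. Esr2 was also lower in the Foxl2 siRNA libraries, at 25.0 to 45.5 CPM at 30 h and 15.7 to 49.3 CPM at 54 h. EdgeR did not call this at 30 h (log2 -0.87 ± 0.34, adjusted p = 0.109) but did at 54 h (log2 -1.31 ± 0.34, adjusted p = 0.00854). Foxl2 in turn was at 112 to 128 CPM with Esr2 siRNA, below the scrambled libraries at 30 h. That change was not called by edgeR (log2 -0.41 ± 0.29, adjusted p = 0.539). All 12 granulosa markers were detected in every group, though Fshr and Cyp19a1 were low, at group means of 0.408 to 0.681 CPM and 0.0556 to 3.46 CPM. Several of the 12 moved with Foxl2 siRNA, as given beside the other marker lists. Globin genes were at 0 counts, and the leukocyte list summed to at most 6.76 CPM in any library, with Tyrobp at 0.

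With Foxl2 siRNA, the genes that rose were Smad7 and Smad2 at 30 h, and the ligand Tgfb2, Smad7, Smad2 and the common Smad4 at 54 h. No member fell, and neither receptor, Smad3 nor Skil passed the test against scrambled siRNA at either time. At 30 h, 2 of 10 members were called by edgeR at an adjusted p under 0.05, both higher, beside 13% of all genes tested, with 6.34% higher and 6.65% lower. At 54 h, 4 of 10 were called, all higher, beside 38.8% of all genes, with 18.5% higher and 20.3% lower, so the number of members called at 54 h was near the background share. The members' median log2 change was 0.11 at 30 h and 0.11 at 54 h, against -0.01 over all genes tested at each time. Libraries of the groups did not overlap for 4 of 10 members at 30 h and for 4 of 10 at 54 h, beside 33% and 51.4% of all genes.

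**Figure D1:**
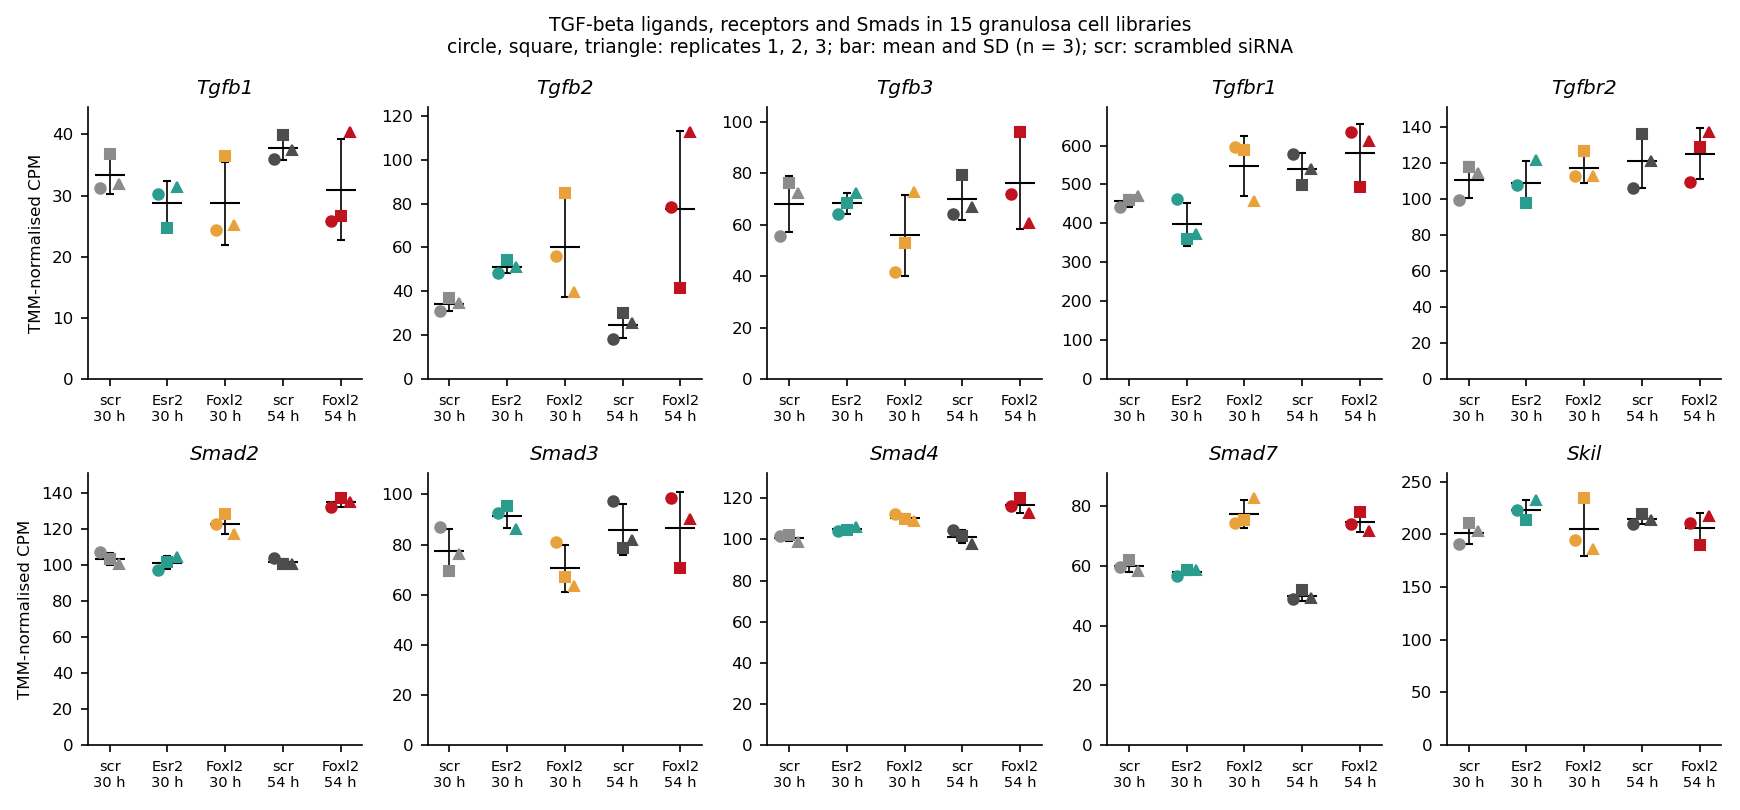
TMM-normalised CPM of the 10 genes (vertical axes, from 0) in the 15 libraries by group; symbols are replicates and bars are mean and SD of 3 libraries. Smad2, Smad4 and Smad7 sit in tight groups with both Foxl2 siRNA groups above scrambled siRNA of the same time, while Tgfb2 with Foxl2 siRNA spreads from 39.9 to 113 CPM.

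Among the ligands, Tgfb2 had the widest range of the 10 genes over the 15 libraries, 6.18-fold from 18.3 to 113 CPM. Tgfb2 lies on chromosome 1 (mm10, 186622792 to 186705989, minus strand), and its sequence upstream of the transcription start is shown beside that of Tgfb1 (chromosome 7, 25687002 to 25705077, plus strand), a ligand gene that was not called with either siRNA. Each sequence is the 250 bases before the start from RefSeq (build GRCm38.p6), 5′ to 3′ on the gene's strand, with matches to 4 searched motifs in capitals.
Tgfb2 promoter, chr1:186705990-186706239, minus strand: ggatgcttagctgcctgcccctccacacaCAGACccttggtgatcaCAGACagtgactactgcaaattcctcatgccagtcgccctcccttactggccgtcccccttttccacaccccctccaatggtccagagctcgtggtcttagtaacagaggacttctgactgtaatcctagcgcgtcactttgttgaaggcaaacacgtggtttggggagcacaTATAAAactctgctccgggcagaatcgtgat
Tgfb1 promoter, chr7:25686752-25687001, plus strand: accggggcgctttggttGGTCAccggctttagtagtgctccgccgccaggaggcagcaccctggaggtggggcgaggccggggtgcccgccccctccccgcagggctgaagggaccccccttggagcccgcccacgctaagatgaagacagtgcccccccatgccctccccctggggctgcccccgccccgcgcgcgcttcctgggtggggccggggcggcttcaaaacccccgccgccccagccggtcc
The motifs were searched on both strands and did not overlap one another in these windows. They were the forkhead core GTAAACA bound by factors such as FOXL2, the Smad box CAGAC that SMAD3 and SMAD4 recognise, GGTCA, and the TATA box TATAAA that sets the start of transcription. GGTCA is only a part of the full oestrogen receptor site. The Tgfb2 window held the Smad box at 221 and 204 bases and the TATA box at 31 bases before the start. The Tgfb1 window held GGTCA at 233 bases before the start. Of 32841 promoter windows of the same length, 42.2% held the Smad box, 12.4% the TATA box, 35.2% GGTCA and 3.17% the forkhead core. Neither window shown held the forkhead core in this exact form, and variant forms of it were not searched. The windows differed in base composition, with 53.6% G and C for Tgfb2 and 75.2% for Tgfb1.

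Tgfb2 encodes TGF-beta 2, the ligand that depends most on the co-receptor betaglycan. It was at 18.3, 30.3 and 25.4 CPM with scrambled siRNA at 54 h and at 78.5, 41.6 and 113 CPM with Foxl2 siRNA at 54 h, in replicates 1 to 3. All 3 Foxl2 siRNA libraries lay above all 3 scrambled ones, with replicate 2, which kept the most Foxl2, the lowest of them. The log2 change was 1.65 ± 0.32 (SE), a 3.15-fold difference, with an edgeR adjusted p of 0.00153. It stayed called without any 1 library, at 1.28 to 1.96. In bulk RNA, fewer cells of a type and less RNA per cell cannot be told apart, here and in every later comparison.

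At 30 h, Tgfb2 was at 30.9, 36.8 and 34.8 CPM with scrambled siRNA and at 56.2, 84.6 and 39.9 CPM with Foxl2 siRNA. The groups again did not overlap, and replicate 3, with the most Foxl2 left, was the lowest. The log2 change of 0.82 ± 0.32 was not called by edgeR (adjusted p = 0.110). It was called with DESeq2 (adjusted p = 0.0434) and by edgeR without replicate 3 of the Foxl2 siRNA group (1.04, adjusted p = 0.0401). Esr2 siRNA libraries had 48.5, 54.5 and 50.9 CPM of Tgfb2, all above the scrambled libraries and within the range of the Foxl2 siRNA libraries of the same time. From high to low, the group means were 77.6 ± 35.6 CPM (SD, n = 3) with Foxl2 siRNA at 54 h, 60.2 ± 22.7 at 30 h, 51.3 ± 3.03 with Esr2 siRNA, 34.2 ± 2.99 with scrambled siRNA at 30 h and 24.7 ± 6.06 at 54 h. The first 3 of these overlapped, and the scrambled groups lay below them and apart from each other, by 30.9 CPM at the lowest against 30.3 CPM at the highest.

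Tgfb1 encodes the ligand best known from wound repair and immune control, and it ranged over 1.65-fold in all, from 24.4 to 40.4 CPM. Its log2 change with Foxl2 siRNA was -0.21 ± 0.18 at 30 h and -0.29 ± 0.18 at 54 h, and its groups overlapped at both times. At 54 h the Foxl2 siRNA libraries had 25.8, 26.6 and 40.4 CPM against 35.9, 39.8 and 37.5 CPM, and without the high replicate 3 the difference became -0.53 with an edgeR adjusted p of 0.0251. That call thus rests on which libraries enter. Tgfb3, which encodes TGF-beta 3, ranged from 41.6 to 96.1 CPM and was not called (log2 -0.29 ± 0.20 at 30 h and 0.12 ± 0.20 at 54 h with Foxl2 siRNA). Within both Foxl2 siRNA groups, the library that kept the most Foxl2 had the highest Tgfb3 level, 72.8 CPM at 30 h and 96.1 CPM at 54 h, and the lowest Tgfb2 level.

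Per kb of exon, Tgfb3 was the most abundant of the ligands with scrambled siRNA at 30 h, at 20.1 ± 3.25 CPM per kb, against 6.60 ± 0.595 for Tgfb1 and 5.90 ± 0.516 for Tgfb2. Tgfb2 made up 17.6% to 19.1% of the summed per-kb level of the ligands in those libraries and 10.8% to 14.3% at 54 h. With Foxl2 siRNA its share in replicates 1, 2 and 3 was 36.2%, 38.9% and 20.6% after 30 h, and 33.9%, 17.6% and 42.8% after 54 h. With Esr2 siRNA it was 24.1% to 27.2%. Every Foxl2 or Esr2 siRNA library thus had a larger Tgfb2 share than every scrambled library of its time. Tgfb3 kept the largest share in 14 of 15 libraries, the exception being replicate 3 of Foxl2 siRNA at 54 h, where Tgfb3 took 39.5%. The summed ligand level was 40.0 to 45.5 CPM per kb with Foxl2 siRNA at 54 h and 29.2 to 36.6 CPM per kb with scrambled siRNA at that time. These ranges did not overlap, as was so for 51.4% of single genes at 54 h. At 30 h the ranges overlapped, at 26.9 to 37.5 CPM per kb with Foxl2 siRNA and 28.0 to 36.2 with scrambled siRNA. The reads of Tgfb2 share 124 exonic bases with the antisense gene Gm29491, and those of Tgfb3 share 163 with Gm37804 and 257 with Gm48008, none of which is listed in the count files. The library kit keeps strand, but the strand setting of the counting is not given in the sources used here.

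**Figure D2:**
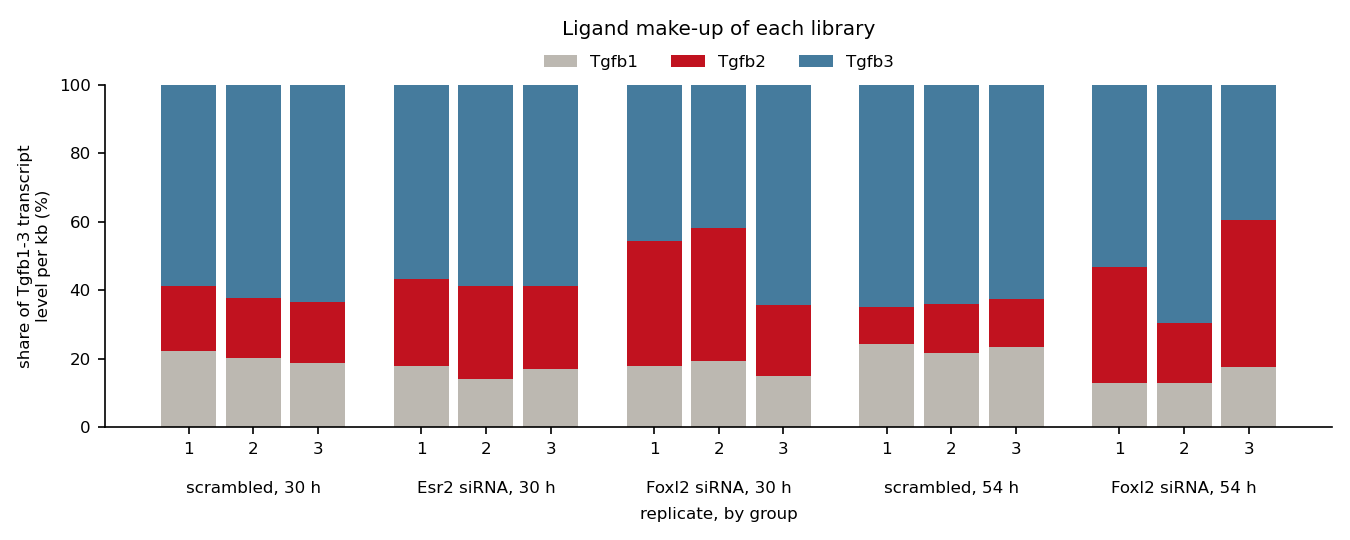
Share of each ligand gene in the summed Tgfb1, Tgfb2 and Tgfb3 level per kb of exon (vertical axis, percent) in each of the 15 libraries, by group and replicate. The Tgfb2 band is thinnest with scrambled siRNA at 54 h, at 10.8% to 14.3%, and widest in replicate 3 of Foxl2 siRNA at 54 h, at 42.8%.

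Neither receptor was called against scrambled siRNA. Tgfbr1, the type I receptor kinase (chromosome 4), was the most abundant of the 10 genes per kb with scrambled siRNA at 30 h, at 70.0 ± 2.22 CPM per kb, and Tgfbr2, the type II receptor (chromosome 9), had 13.5 ± 1.19. Their ratio per kb was between 3.84 and 7.27 over the 15 libraries. Tgfbr1 was at 442, 459 and 471 CPM with scrambled siRNA and at 596, 589 and 459 CPM with Foxl2 siRNA at 30 h. Replicates 1 and 2 stood above the scrambled libraries and replicate 3 among them, and the log2 change of 0.26 ± 0.12 was not called by edgeR (adjusted p = 0.194), but was without replicate 3 (0.37, adjusted p = 0.0474). At 54 h its log2 change was 0.11 ± 0.12, with 494 to 636 CPM against 499 to 579 CPM. Tgfbr2 stayed between 97.9 and 138 CPM in all 15 libraries, and its log2 change with Foxl2 siRNA was 0.09 at 30 h and 0.05 at 54 h, with 95% intervals of -0.16 to 0.33 and -0.20 to 0.29.

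Smad2 and Smad3 are the receptor-activated Smads of the TGF-beta and activin branch, and with Foxl2 siRNA the first was called and the second was not. Smad2 (chromosome 18) was at 107, 103 and 100.3 CPM with scrambled siRNA at 30 h and at 123, 128 and 117 CPM with Foxl2 siRNA. At 54 h it was at 104, 100.1 and 100.5 CPM with scrambled siRNA and at 132, 137 and 135 CPM with Foxl2 siRNA. At each time all 3 Foxl2 siRNA libraries were above all 3 scrambled ones, and the 54 h group lay above the 30 h group. The log2 change was 0.25 ± 0.05 at 30 h (edgeR adjusted p = 0.0054) and 0.41 ± 0.05 at 54 h (edgeR adjusted p = 4.24e-05), or 1.19-fold and 1.33-fold, against group SDs of 1.90 to 5.31 CPM.

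Smad3 (chromosome 9) was at 86.9, 69.5 and 76.0 CPM with scrambled siRNA and at 81.0, 67.0 and 63.5 CPM with Foxl2 siRNA at 30 h. The groups overlapped, and the log2 change was -0.14 with a 95% interval of -0.42 to 0.15. At 54 h the change was 0.01, with an interval of -0.28 to 0.29. Whether the response of Smad3 differs from that of Smad2 was not tested between the genes. In the Esr2 siRNA libraries, Smad3 was at 92.5, 95.5 and 86.3 CPM, all above the Foxl2 siRNA libraries of the same time.

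Smad4, the partner that all signalling Smads share (chromosome 18), varied least of the 10 genes, with a 1.23-fold range from 97.9 to 120.3 CPM. With scrambled siRNA it was at 102, 102 and 98.8 CPM at 30 h and at 104, 102 and 97.9 CPM at 54 h. With Foxl2 siRNA it was at 112, 110.1 and 109 CPM at 30 h and at 116, 120.3 and 113 CPM at 54 h. Here too no Foxl2 siRNA library reached down to the scrambled ones. The log2 change of 0.20 ± 0.04 at 54 h was called by edgeR (adjusted p = 0.0026), and that of 0.13 ± 0.04 at 30 h was not (adjusted p = 0.0617). The 30 h value was called with DESeq2 (adjusted p = 0.00399) and with either other scaling in edgeR (adjusted p = 0.0481 and 0.0206), with changes of 0.14 to 0.17.

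Among the inhibitors, Smad7 gave the smallest p of the members against scrambled siRNA at both times. Smad7 (chromosome 18) was at 59.5, 61.9 and 58.3 CPM with scrambled siRNA and at 74.3, 75.3 and 82.9 CPM with Foxl2 siRNA at 30 h. At 54 h it was at 49.0, 52.1 and 49.3 CPM with scrambled siRNA and at 74.0, 78.2 and 71.7 CPM with Foxl2 siRNA. The groups were far apart at both times, and in contrast to Tgfb2, the Foxl2 siRNA library with the most Foxl2 left had the highest Smad7 level of its group. The log2 change was 0.37 ± 0.05 at 30 h (edgeR adjusted p = 0.000907) and 0.57 ± 0.05 at 54 h (edgeR adjusted p = 9.22e-06), or 1.29-fold and 1.49-fold. The means with Foxl2 siRNA were 77.5 ± 4.71 and 74.6 ± 3.33 CPM (SD, n = 3) and overlapped, while the scrambled means were 59.9 ± 1.83 and 50.1 ± 1.73 CPM and did not.

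Skil, which encodes the co-repressor SnoN (chromosome 3), was at 187 to 235 CPM in all 15 libraries. Its log2 change with Foxl2 siRNA was 0.03 (95% interval -0.15 to 0.20) at 30 h and -0.06 (-0.23 to 0.12) at 54 h, and its groups overlapped. Smad2, Smad4 and Smad7, the Smads called at 54 h, lie near each other on chromosome 18 (mm10), Smad4 at 73639009 to 73703780, Smad7 at 75367529 to 75395935 and Smad2 at 76241580 to 76310963. Smad3 lies on chromosome 9, from 63646767 to 63757994.

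**Figure D3:**
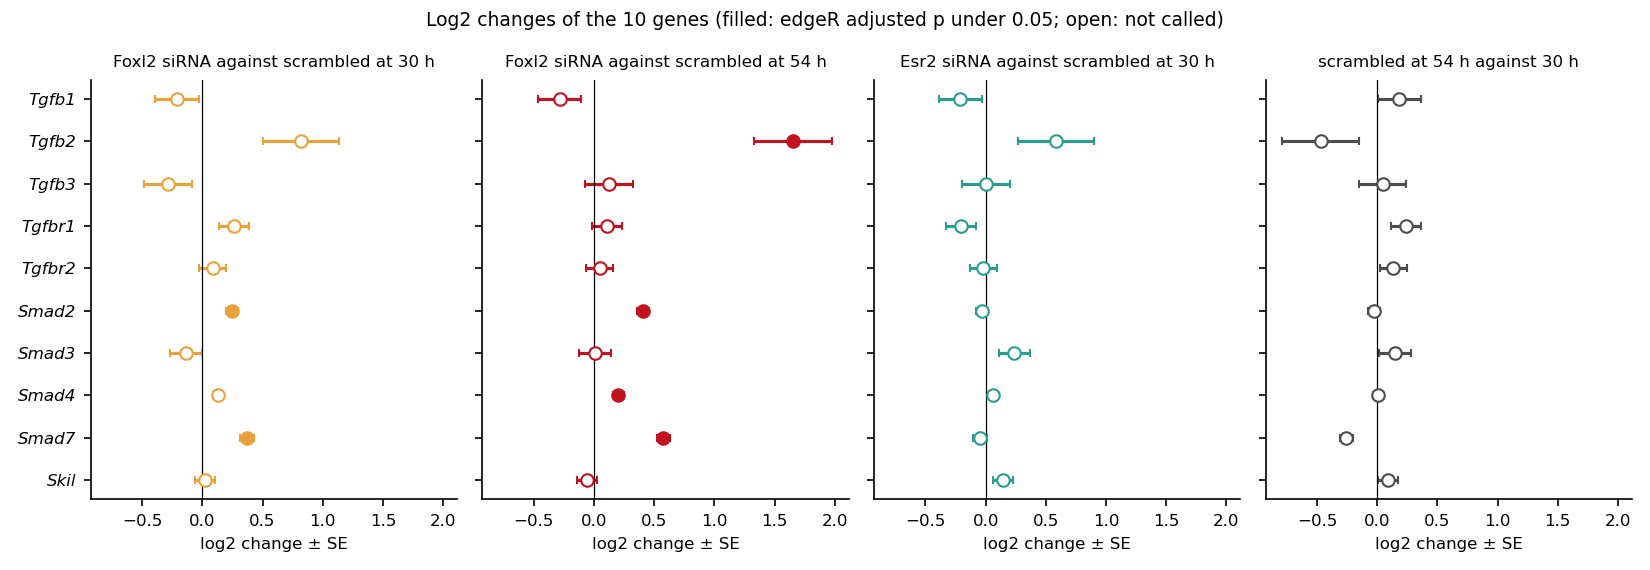
Log2 change ± SE (horizontal axes) of the 10 genes in 4 comparisons; filled points had an edgeR adjusted p under 0.05. Filled points are Smad2 and Smad7 at 30 h and Tgfb2, Smad2, Smad4 and Smad7 at 54 h with Foxl2 siRNA, and the panels for Esr2 siRNA and for time hold none.

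Markers of granulosa cells and of other cell types moved with Foxl2 siRNA. Of the 12 granulosa markers, which include Foxl2 and Esr2, edgeR called 2 higher and 3 lower at 30 h, and 2 higher and 5 lower at 54 h. Cyp19a1, which encodes aromatase, fell at 54 h from a mean of 3.46 to 0.0556 CPM. The lower value is about 3 counts, which equalled 0.0506 to 0.0660 CPM in those Foxl2 siRNA libraries. At the same time Fst, which encodes the activin-binding follistatin, fell from 94.4 to 8.67 CPM. Cyp11a1, the first enzyme of steroid synthesis, rose from 1958 to 3178 CPM. The summed level of the list was 5736 to 6303 CPM with scrambled siRNA and 7158 to 8118 CPM with Foxl2 siRNA at 30 h, and 5573 to 5585 CPM and 6064 to 6624 CPM at 54 h. With Esr2 siRNA, Esr2 alone was called, lower. For the ovarian surface epithelium, the 9 of 10 listed markers found in the files summed to 450 to 473 CPM with scrambled siRNA and 626 to 688 CPM with Foxl2 siRNA at 30 h, and to 413 to 483 CPM and 1003 to 1079 CPM at 54 h. Called higher by edgeR were 3 of 9 at 30 h and 6 of 9 at 54 h, and 0 of 9 were at 0 counts in any group. Wt1, Krt8 and Krt18 of this list are also expressed by granulosa cells. With Foxl2 siRNA at 54 h they rose 2.76-fold, 1.45-fold and 1.87-fold. The other markers called at 54 h, Msln, Upk3b and Upk1b, rose more, 6.14-fold, 5.01-fold and 2.95-fold. At 30 h Msln was called by edgeR (2.72-fold higher), while Upk3b and Upk1b were not. Krt7, Krt19 and Cdh1 were not called at either time. With Esr2 siRNA the sum was 482 to 487 CPM with 0 of 9 called. Of the leukocyte list, 1 of 2 tested markers, Csf1r, was also called higher with Foxl2 siRNA at both times, from a mean of 1.17 to 2.78 CPM at 30 h and from 0.727 to 2.17 CPM at 54 h. The erythroid gene Alas2 was called higher at both times too, at means of at most 1.31 CPM, with the 4 globin genes listed at 0. Theca and stroma markers summed to 171 to 825 CPM and smooth muscle markers to 320 to 1063 CPM, with ranges that overlapped between all groups. With Foxl2 siRNA, 0 of these were called at 30 h, and at 54 h 1 of 6 tested theca and stroma markers was lower and 1 of 7 smooth muscle markers higher. Of 2 tested oocyte markers, Ddx4 was called lower at 54 h, from a mean of 2.25 to 0.999 CPM. The part of these markers' cells in the changes of Tgfb2, Smad2, Smad4 and Smad7 was not tested.

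Esr2 siRNA at 30 h asked whether the receptor's loss touches the same genes, and edgeR called 0 of 10 members, beside 4.23% of all genes tested, with 1.13% higher and 3.11% lower. Of the 10, 0 had an unadjusted p under 0.05, and DESeq2 called 0. Foxl2 was also lower in these libraries without being called, and its part in these values was not tested. Libraries did not overlap for Tgfb2, Smad4 and Skil, all higher with Esr2 siRNA, beside 29.5% of all genes without overlap. Smad4 was at 104, 105 and 106 CPM and Skil at 223, 214 and 233 CPM, against 191, 211 and 204 CPM of Skil with scrambled siRNA. The log2 change of Tgfb2 was 0.59 ± 0.32 (95% interval -0.10 to 1.27, edgeR adjusted p = 0.376), and it was called when only the groups compared entered the fit (edgeR adjusted p = 0.00659), which left out the uneven Foxl2 siRNA libraries. Smad2 and Smad7 had log2 changes of -0.03 (-0.14 to 0.07) and -0.05 (-0.16 to 0.07), intervals that do not reach the changes measured with Foxl2 siRNA. The sign of Smad2 here turned with upper-quartile scaling.

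Foxl2 siRNA set directly against Esr2 siRNA at 30 h called 3 of 10 members by edgeR, all higher with Foxl2 siRNA, beside 20.4% of all genes tested, with 11.1% higher and 9.34% lower. This comparison and the ones above use the same libraries, so they are not independent of each other. Smad7 was 0.42 ± 0.05 higher on the log2 scale (edgeR adjusted p = 0.000227) and Smad2 0.28 ± 0.05 higher (edgeR adjusted p = 0.00152), with no overlap between the groups for either. Tgfbr1 was 0.46 ± 0.13 higher (edgeR adjusted p = 0.0201) on 596, 589 and 459 CPM against 462, 359 and 373 CPM. Its groups overlapped, since replicate 3 of Foxl2 siRNA lay just below replicate 1 of Esr2 siRNA. That call was lost when only the 2 groups entered (edgeR adjusted p = 0.0790), and without replicate 2 or 3 of Esr2 siRNA or replicate 1 or 2 of Foxl2 siRNA (edgeR adjusted p = 0.0664 to 0.0783). The log2 difference of Smad3 was -0.38 ± 0.13 and was not called by edgeR (adjusted p = 0.0600), although its groups did not overlap. It was called with DESeq2 (adjusted p = 0.0397), with upper-quartile scaling (edgeR adjusted p = 0.0497) and without replicate 1 of Foxl2 siRNA (edgeR adjusted p = 0.0348). Tgfb2 differed by 0.23 (95% interval -0.45 to 0.91) between the siRNAs. In all, 4 of 10 members had groups without overlap, beside 34.8% of all genes.

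Scrambled siRNA at 54 h against 30 h compares the times in culture without a targeted gene, and edgeR called 0 of 10 members, beside 0.00671% of all genes tested, which is 1 gene. Smad7 alone had an unadjusted p under 0.05 and ranked 23rd of all genes, with a log2 change of -0.26 ± 0.05 (edgeR adjusted p = 0.239), and DESeq2 called it and no other member (adjusted p = 0.00452). Libraries did not overlap for 3 of 10 members, Tgfb2 and Smad7 lower and Tgfbr1 higher at 54 h, beside 22.7% of all genes. Tgfbr1 was at 579, 499 and 541 CPM at 54 h. Deviations of same-numbered scrambled libraries correlated at 0.143 to 0.632. Replicate 3 at 30 h was closer to replicate 2 at 54 h (0.336) than to replicate 3 (0.143), so its pairing is uncertain. In a fit of these 6 libraries with the replicate number as a block, added after seeing the data, edgeR called 6 of 10 members. Smad7 and Tgfb2 were lower there (-0.26 and -0.49, adjusted p = 0.0012 and 0.00381). Tgfb1, Tgfbr1, Tgfbr2 and Smad3 were higher (0.13 to 0.24, adjusted p = 0.0164 to 0.0473). That fit called 1586 genes in all. The block in the fit of all 15 libraries called 0 of 10 members.

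The 54 h and 30 h changes with Foxl2 siRNA were compared by an interaction term, which edgeR called for 0 of 10 members, beside 0.00671% of all genes tested. Smad7 and Smad2 had an unadjusted p under 0.05, and DESeq2 called 0 of 10. The change was larger at 54 h by 0.84 ± 0.45 for Tgfb2 (edgeR adjusted p = 0.576), 0.20 ± 0.08 for Smad7 (edgeR adjusted p = 0.390) and 0.16 ± 0.07 for Smad2 (edgeR adjusted p = 0.445), all on the log2 scale. None of these differences passed the test.

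The level of Foxl2 left in each library gave an order within the Foxl2 siRNA groups. At 30 h, Foxl2 was at 33.8, 28.4 and 65.4 CPM in replicates 1, 2 and 3, and Tgfb2 at 56.2, 84.6 and 39.9 CPM. At 54 h, Foxl2 was at 33.7, 57.5 and 25.2 CPM and Tgfb2 at 78.5, 41.6 and 113 CPM. In both groups the order of Tgfb2 was the reverse of that of Foxl2. This order rests on 3 libraries a group, and how many of all genes show it was not counted. Esr2 went with Foxl2 in these libraries, at 29.2, 25.0 and 45.5 CPM at 30 h and 18.0, 49.3 and 15.7 CPM at 54 h, so the levels of Foxl2 and Esr2 cannot be told apart here. The samples fall into separate groups, so no correlation with Foxl2 over all of them is given.

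**Figure D4:**
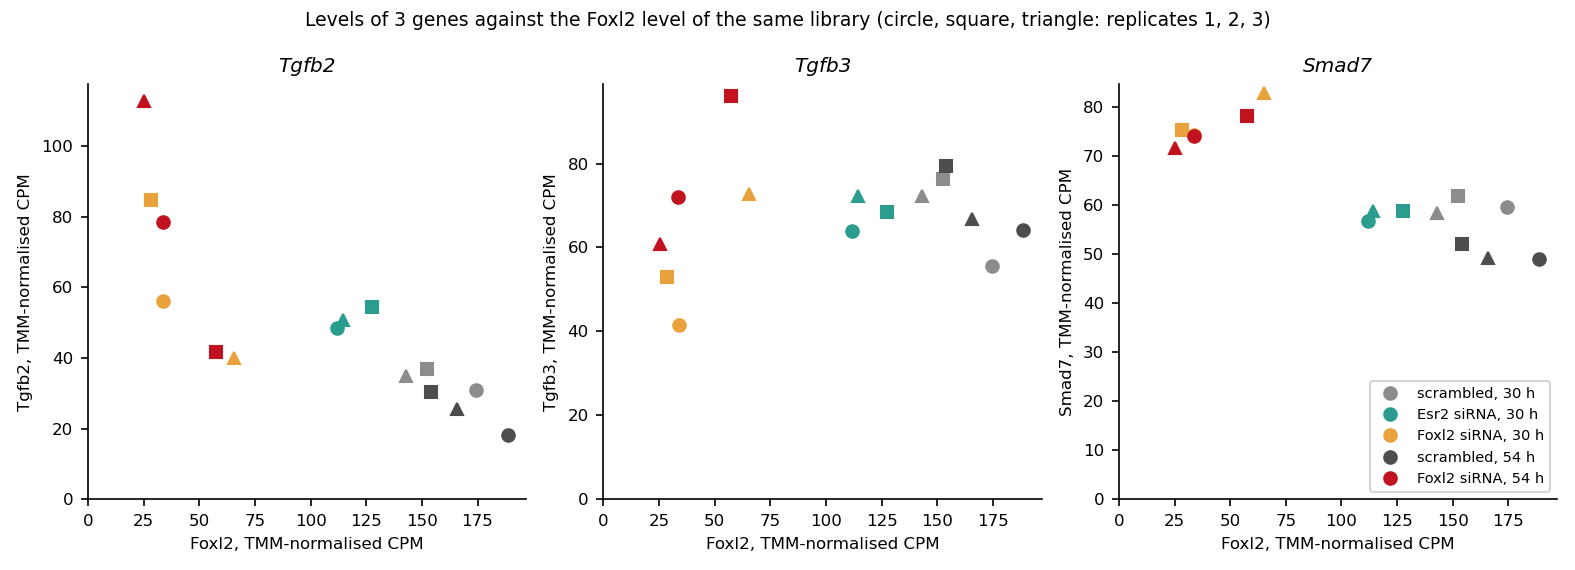
Levels of Tgfb2, Tgfb3 and Smad7 (vertical axes, TMM-normalised CPM) against the Foxl2 level of the same library (horizontal axis, CPM) in 15 libraries; colour is the group and the symbol the replicate. Within the Foxl2 siRNA groups Tgfb2 is highest where Foxl2 is lowest, 25.2 CPM, while Smad7 stays between 71.7 and 82.9 CPM.

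The genes whose log2 CPM most resembled a called member's over the 15 libraries, of 12625 compared, are given as a description of these libraries, which share their groups. Smad2 was closest to Col4a6 and Atp8b5 (Pearson r = 0.98 each), Smad4 to Atp8b5 and Oplah (0.95 each), and Smad7 to Rasgrp3 (0.96) and Actb (0.95). Tgfb2 was closest to Gcnt3 and Timp1 (0.94 each) and Tgfbr1 to Ggcx (0.93) and Unkl (0.90). Among the members themselves, r was 0.91 between Smad2 and Smad4, 0.84 between Smad2 and Smad7 and 0.81 between Smad4 and Smad7, and 0.61 to 0.66 between Tgfb2 and each of them.

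Around these 10 genes, 5 lists of other pathway genes held 55 genes, of which 54 were tested and Foxh1, a Smad2 partner, was too low. With Foxl2 siRNA at 30 h, 5 rose and 2 fell, or 13% of those tested, the same as over all genes, with a median log2 change of 0.06. At 54 h, 14 rose and 6 fell, or 37%, beside 38.8% of all genes, with a median of 0.18. These counts were thus no higher than the background. With Esr2 siRNA 2 rose and 0 fell, or 3.7%, beside 4.23% of all genes with 1.13% higher. With scrambled siRNA over time 0 of 54 were called by edgeR (5 at an unadjusted p under 0.05 and 1 with DESeq2), and in the interaction 0 of 54 (7 and 2).

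Genes that store and free the latent ligands were led by Itgb8, an integrin subunit that activates latent TGF-beta, at 1.07 ± 0.191 CPM with scrambled siRNA and 2.84 ± 1.26 CPM with Foxl2 siRNA at 30 h, and 2.01 ± 0.247 and 9.44 ± 4.80 CPM at 54 h. Its log2 change was 1.41 ± 0.39 (edgeR adjusted p = 0.0320) and 2.23 ± 0.38 (edgeR adjusted p = 0.000599). The 30 h call was lost in 7 of 12 alternatives, among them each fit without 1 library other than replicate 3 of Foxl2 siRNA and the fit of only the groups compared (edgeR adjusted p = 0.0505 to 0.128 over the 7). At 54 h Ltbp1, a latent-complex binding protein, rose (0.56 ± 0.17) and Thbs1, thrombospondin 1, another activator, fell (-1.08 ± 0.32). The Ltbp1 call was lost without replicate 2 or 3 of scrambled siRNA or replicate 1 of Foxl2 siRNA (edgeR adjusted p = 0.0512 to 0.0913), and that of Thbs1 without replicate 1 or 3 of Foxl2 siRNA (0.0682 and 0.0579). Both were also lost with only the groups compared (edgeR adjusted p = 0.0621 and 0.0506). With Esr2 siRNA the risers of the 54 tested were Ltbp1, from 112 ± 3.18 to 187 ± 15.8 CPM, and Furin, the protease that cuts the ligand precursors, from 153 ± 5.99 to 208 ± 7.97 CPM. The log2 change of Furin was 0.45 ± 0.06 (edgeR adjusted p = 0.000927), and Furin was lower with Foxl2 than with Esr2 siRNA (-0.41 ± 0.06, edgeR adjusted p = 0.000513). The Ltbp1 change of 0.74 ± 0.17 (edgeR adjusted p = 0.0248) was lost without any 1 library of the groups compared (0.0526 to 0.0990).

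Of 7 co-receptors and receptor partners, 0 were called by edgeR at 30 h, and Fkbp1a, which holds TGFBR1 in its resting state, rose at 54 h (0.38 ± 0.13, edgeR adjusted p = 0.0311). That call was lost in 5 of the 6 fits without 1 library, all but that without replicate 2 of Foxl2 siRNA (edgeR adjusted p = 0.0563 to 0.139). Among 15 tested Smad regulators and co-factors, Tgif1, a co-repressor of Smad2 and Smad3, fell at both times, from 45.1 ± 0.0356 to 27.4 ± 4.05 CPM at 30 h and from 45.7 ± 1.12 to 26.4 ± 2.11 CPM at 54 h. Its log2 change was -0.72 ± 0.09 (edgeR adjusted p = 0.000401) and -0.79 ± 0.09 (edgeR adjusted p = 3.93e-05). Its relative Tgif2 rose at 54 h (0.50 ± 0.13), as did the ubiquitin ligase Nedd4l, to 26.8 ± 9.21 CPM (1.16 ± 0.18, edgeR adjusted p = 0.000333). The ligase Wwp1 fell at 54 h (-0.94 ± 0.33), a call lost without any 1 library but replicate 2 of Foxl2 siRNA and with only the groups compared (edgeR adjusted p = 0.0652 to 0.132), and that of Tgif2 was lost without replicate 1 of Foxl2 siRNA (0.0552). Zfyve9, the anchor that presents SMAD2 and SMAD3 to the receptor, rose at 30 h (0.26 ± 0.08, edgeR adjusted p = 0.0402), a call lost without any 1 library but replicate 3 of Foxl2 siRNA, with no filter and with only the groups compared (0.0524 to 0.149). In all, 5 of the 15 rose and 2 fell at 54 h, or 46.7%, beside 38.8% of all genes.

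Of 4 Smads of the bone morphogenetic protein branch, 1 fell at 30 h, beside 6.65% of all genes lower, and 2 at 54 h, beside 20.3%, and 0 rose. Smad6, the inhibitory Smad of that branch, was at 59.8 ± 5.85 and 40.0 ± 2.99 CPM at 30 h and at 59.2 ± 3.32 and 41.0 ± 1.38 CPM at 54 h, with scrambled and Foxl2 siRNA. Its log2 change was -0.58 ± 0.09 (edgeR adjusted p = 0.00114) and -0.53 ± 0.09 (edgeR adjusted p = 0.000543), and the groups did not overlap at either time. The inhibitory Smads Smad6 and Smad7 thus changed in opposite directions in the same libraries. Smad6 was also lower with Foxl2 than with Esr2 siRNA (-0.58 ± 0.09, edgeR adjusted p = 0.000644). Smad9 fell at 54 h (-0.69 ± 0.25, edgeR adjusted p = 0.0447), a call lost in 9 of 12 alternatives: 5 of the 6 fits without 1 library, and 4 others that include upper-quartile scaling and no filter (edgeR adjusted p = 0.0506 to 0.144 over the 9). Smad1 and Smad5 were not called.

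Of 18 genes known to be induced by TGF-beta in other cells, 3 rose at 30 h, or 16.7%. Beside this, 13% of all genes were called, 6.34% of them higher as a share of all. The list median was 0.16, against -0.01 over all genes. At 54 h 6 of 18 rose and 1 fell, or 38.9% beside 38.8% of all genes, with 18.5% of all genes higher and 20.3% lower. The list median was then 0.46, against -0.01 over all genes. Timp3, an inhibitor of matrix proteases, went from 341 ± 63.3 to 902 ± 296 CPM at 30 h and from 306 ± 83.7 to 1431 ± 425 CPM at 54 h, 2.65-fold and 4.67-fold (edgeR adjusted p = 0.00637 and 8.67e-05). Cdkn2b, a cell-cycle inhibitor, rose 1.83-fold and 2.31-fold (edgeR adjusted p = 0.00399 and 0.000108). Cyr61, a matricellular protein, rose 1.46-fold at 30 h (edgeR adjusted p = 0.0256), a call lost without replicate 2 or 3 of scrambled siRNA or replicate 1 or 2 of Foxl2 siRNA (0.0523 to 0.103). At 54 h its sister gene Ctgf rose 3.17-fold, from 473 ± 13.0 to 1502 ± 387 CPM (edgeR adjusted p = 0.000112). Fn1, fibronectin, which was singled out after its values were seen as the gene of this list that fell, went from 2333 ± 177 to 1323 ± 264 CPM at 54 h (edgeR adjusted p = 0.00103). Acta2, Tagln and Col1a1, also in the list, were not called. With Esr2 siRNA, edgeR called 0 of these 18.

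**Figure D5:**
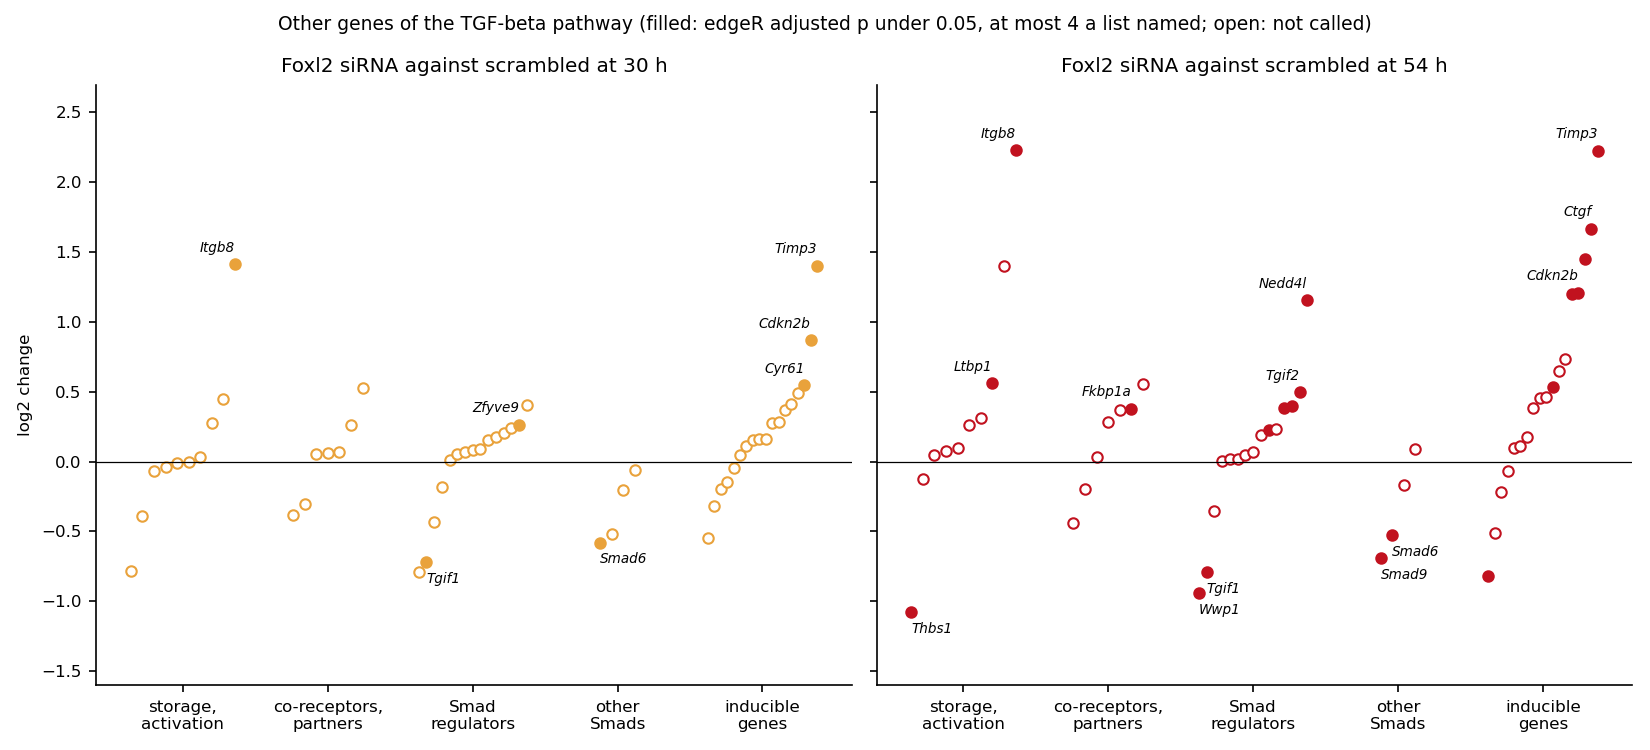
Log2 change with Foxl2 siRNA at 30 h and 54 h (vertical axis) of the 54 tested genes of 5 pathway lists, each list sorted by value; filled points had an edgeR adjusted p under 0.05. At 54 h Itgb8 (2.23) and Timp3 (2.22) are highest and Thbs1 (-1.08) is lowest.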

How the data were processed

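Poly(A) RNA of primary mouse granulosa cells was read from a stranded mRNA kit as single reads, per the labels. The authors deposited raw counts per gene, 1 file per library. Tools named in the submitters' processing notes are bcl2fastq 2.15.0, DESeq2 and TopHat2, with build mm10; which program counted the reads, on which annotation and strand setting, is not given in the sources used here. Of 24582 features, 92 ERCC spike-ins were left out, and 15 date-mangled symbols in 1 library were restored by gene order, none of them among the genes described.

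The two-sided quasi-likelihood test of edgeR 4.0.16 (R 4.3.3) was run on the counts, with TMM scaling, its expression filter and Benjamini-Hochberg adjustment over 14907 genes. All 15 libraries entered 1 fit of 5 group means (10 residual degrees of freedom), so groups share an estimate of spread (biological coefficient of variation 0.148). Calls are at an adjusted p under 0.05; standard errors come from the F statistic and intervals are 95%. CPM per kb used exon lengths of GENCODE (mm10). Alternatives were other scalings, no filter, DESeq2 1.42.0, a replicate block, only the groups compared, and each replicate left out; the block with only the groups compared was added after seeing the data. Replicate numbers were taken to pair libraries where every same-numbered pair deviated together with a correlation over 0.1, which held only for the scrambled groups at 30 h and 54 h (0.143 to 0.632). Other-numbered pairs of those groups ran from -0.591 to 0.336, the highest of them above the lowest same-numbered pair. The fit was tested on simulated data with the same spread for every gene and group, so that test does not cover groups as uneven as those with Foxl2 siRNA.

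The members, the pathway and marker lists were chosen with earlier results of these data known. The text names all members, at most 4 called genes per pathway list and comparison by size of change, and the 2 genes most like each called member with a mean of at least 1 CPM. Fn1, Cyr61 and Zfyve9 are given at 54 h in addition to those. A called pathway gene that this rule would name is counted but not reported here by name. RefSeq promoter sequences were found for 5 of 10 members.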

Additional observations from a re-analysis of the deposited data

How the results depend on the processing

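For the 10 genes, 726 of 790 alternative values kept their direction and side of the threshold, 21 crossed into a call and 5 lost one (all Tgfbr1, Foxl2 against Esr2 siRNA). Another 38 changed sign, all of them uncalled in either fit, with reported log2 values of at most 0.23 in size; 0 called values changed sign. For called pathway genes 380 of 444 kept both and 64 lost the call, among them Itgb8 at 30 h and Smad9 at 54 h with the replicate block (edgeR adjusted p = 0.0505 and 0.0614). At 30 h with Foxl2 siRNA, DESeq2 called 4 members, and fits without 1 library called 2 to 4 members and 4 to 11 pathway genes, most without replicate 3 of Foxl2 siRNA; at 54 h they called 4 to 5 and 13 to 24. With Esr2 siRNA, 1 member was called with only the groups compared, and 1 pathway gene in each fit without 1 library. For time, DESeq2 and the fit of only its groups each called 1 member and 1 pathway gene, and the replicate block in that fit 6 and 15. In the interaction, DESeq2 called 2 pathway genes and fits without 1 library 0 to 6, most without replicate 2 of Foxl2 siRNA at 54 h. Foxl2 against Esr2 siRNA called 8 of 54 pathway genes, 5 higher and 3 lower, or 14.8% beside 20.4% of all genes. Fits without 1 library called 5 to 12 of them, fewest without replicate 1 of Esr2 siRNA. The cause of these moves was not tested.

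Over all genes, the Foxl2 siRNA count of 1936 at 30 h became 898 to 3016 without 1 library. That of Esr2 siRNA, 631, became 1109 with DESeq2, 1131 with only its groups and 238 to 1030 without 1 library. For time, 1 became 69 with DESeq2, 206 with only its groups, 3 with the block in all 15 libraries, 1586 with the block in its groups and 0 with RLE scaling or no filter. The interaction's 1 became 210 with DESeq2 and up to 904 without replicate 2 of Foxl2 siRNA at 54 h. Foxl2 against Esr2 siRNA, 3042, became 1625 with only its groups and 1767 to 3647 without 1 library. Upper-quartile scaling moved the split from 945 higher and 991 lower to 1204 and 799 at 30 h, and from 168 and 463 to 250 and 396 with Esr2 siRNA. The replicate block in the fit of all 15 libraries left the members' calls as they were in 5 comparisons and added Smad3 in Foxl2 against Esr2 siRNA (adjusted p = 0.0131); outside the scrambled groups the replicate number is only a shared number, and 4 of 15 libraries correlated best with their own number. Depth did not limit these genes, all at 18.3 CPM or more.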
